A study of Homo sapiens with 9 samples.

Results

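The PDZ and LIM domain genes PDLIM1, PDLIM2, PDLIM3, PDLIM4, PDLIM5 and PDLIM7, the FHL genes FHL1, FHL2 and FHL3, and the LIM gene LIMA1 are described here in ES-2 cells, a widely used line from a carcinoma of the ovary. They are 10 of the 58174 genes in the expression tables and were taken by gene name. Total RNA was sequenced 72 h after transfection with control siRNAs (siC), with siRNAs directed at the RNA-binding protein IGF2BP1 (siIGF2BP1) or with siRNAs directed at the transcription factor SRF (siSRF). Each condition had 3 libraries, all were of this line, and each gene was targeted with 1 siRNA pool, so that depletion of the target and any other action of the pool cannot be told apart. The question addressed for PDLIM7 was whether its mRNA depends on both IGF2BP1 and SRF, and it is set here beside its paralogs.

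LIM domains are zinc-binding protein modules that bind other proteins and, in many cases, actin filaments under tension. PDLIM proteins join a PDZ domain, which docks on alpha-actinin or tropomyosin, to LIM domains at the other end, and so bring kinases and other partners to stress fibres. PDLIM1, PDLIM2, PDLIM3 and PDLIM4 carry a single LIM domain, whereas PDLIM5 (ENH) and PDLIM7 (Enigma) carry several. FHL proteins consist almost wholly of LIM domains and act both at the cytoskeleton and as transcriptional cofactors. LIMA1 (EPLIN) cross-links actin filaments and slows their disassembly. SRF drives many cytoskeletal genes through a DNA element called the CArG box, with MRTF or TCF proteins as partners, and IGF2BP1 is known for protecting bound mRNAs from decay.

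The sequences before the annotated start sites of PDLIM7 and PDLIM4 are shown because these were the members called lower in both comparisons with siC. They are RefSeq sequences on GRCh38.p14 and hold the 250 bases upstream of the start, 5′ to 3′ on the strand of the gene. Capitals mark GC boxes (GGGCGG on either strand, overlapping matches run together).
PDLIM7, chr5:177497605-177497854, minus strand: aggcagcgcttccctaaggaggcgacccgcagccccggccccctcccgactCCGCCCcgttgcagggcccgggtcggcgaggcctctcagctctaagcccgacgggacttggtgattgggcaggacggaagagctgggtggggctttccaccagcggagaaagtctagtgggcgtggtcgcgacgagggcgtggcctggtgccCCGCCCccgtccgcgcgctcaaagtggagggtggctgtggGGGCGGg
PDLIM4, chr5:132257446-132257695, plus strand: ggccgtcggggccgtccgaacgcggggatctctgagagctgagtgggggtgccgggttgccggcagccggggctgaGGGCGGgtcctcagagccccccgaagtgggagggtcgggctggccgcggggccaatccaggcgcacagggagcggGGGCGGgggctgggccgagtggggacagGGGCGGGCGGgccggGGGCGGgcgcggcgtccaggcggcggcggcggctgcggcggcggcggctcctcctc
PDLIM7 had 3 GC boxes and PDLIM4 had 5. RefSeq windows from 250 bases before to 50 bases after a start were given for 9 of the 10 members, 24 windows in all, and PDLIM2 had no entry. A GC box was found in 11 of the 24 windows, against 45.0% of 35116 promoter windows of the same length. All 9 genes had a GC box in at least 1 window, but FHL1 and FHL2 had several windows each and no share per gene was computed.

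The CArG box itself is shown for the FHL genes, since FHL1 and FHL2 were the only members of the 9 with a full match in any window. Capitals mark the 10 bases of the match, with 10 flanking bases on each side.
FHL1, chrX:136196911-136196940, plus strand: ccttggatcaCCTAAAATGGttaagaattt
FHL2, chr2:105438595-105438624, minus strand: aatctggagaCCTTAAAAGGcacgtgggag
FHL2, chr2:105399091-105399120, minus strand: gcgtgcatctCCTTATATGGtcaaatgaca
A full match was found in 4 of the 24 windows, against 1.29% of the 35116 windows. Overlapping windows shared matches, so the 4 windows held the 3 sites shown, of which 2 belong to FHL2. PDLIM7 and PDLIM4 had no match, also when 1 mismatch was allowed, which 18.9% of all windows passed. A match describes the letters only, and no match says only that these letters are not in the window searched.

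**Figure D1:**
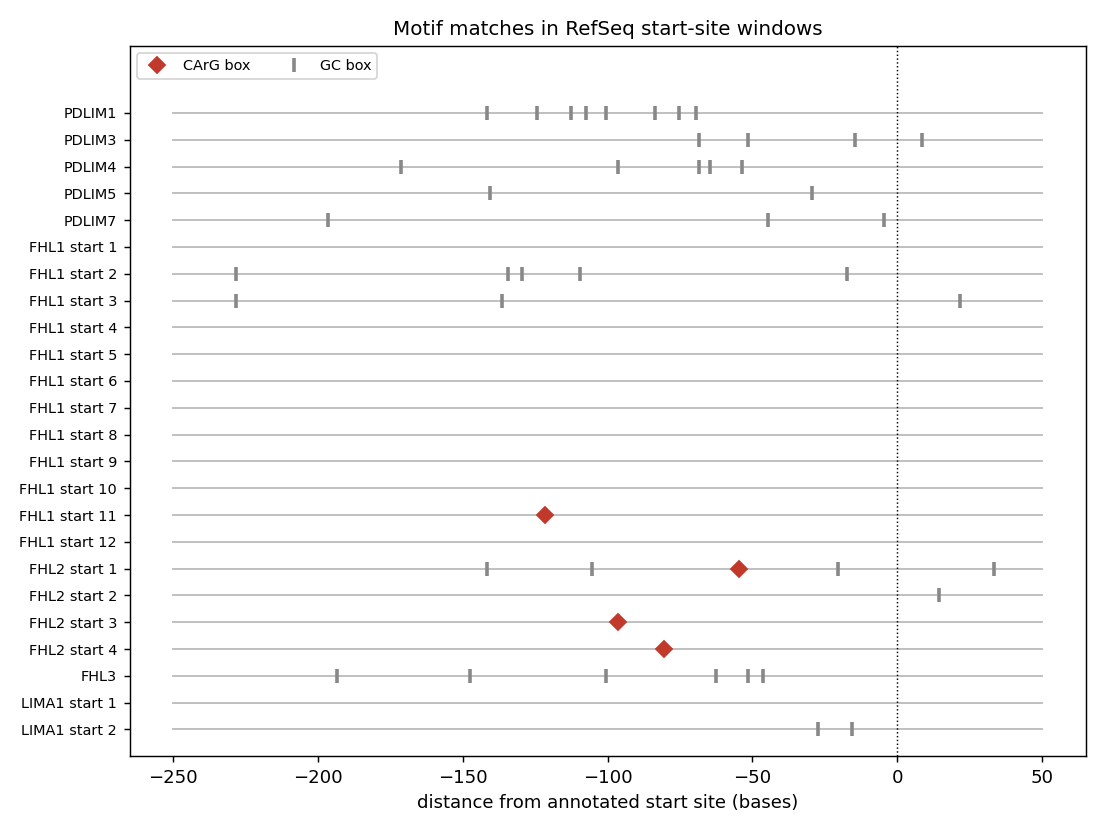
Positions of CArG boxes (red diamonds) and GC boxes (grey bars) in the 24 RefSeq windows of 9 members, with distance from the annotated start site in bases on the x axis and 1 line per window. CArG boxes lie in windows of FHL1 and FHL2, and the windows of PDLIM7 and PDLIM4 hold 3 and 5 GC boxes.

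The members lie on different chromosomes except for 2 pairs. PDLIM7 (ENSG00000196923) spans positions 177483394 to 177497606 on the minus strand of chromosome 5 and PDLIM4 (ENSG00000131435) positions 132257696 to 132273454 on its plus strand (GRCh38, GENCODE 44). On chromosome 4, PDLIM3 (ENSG00000154553) spans 185500660 to 185535507 and PDLIM5 (ENSG00000163110) spans 94451857 to 94668227. PDLIM1 (ENSG00000107438) lies at 95237572 to 95291012 on chromosome 10, and PDLIM2 (ENSG00000120913) at 22578279 to 22598025 on chromosome 8. FHL1 (ENSG00000022267) lies at 136146702 to 136211359 on chromosome X, FHL2 (ENSG00000115641) at 105357712 to 105438513 on chromosome 2 and FHL3 (ENSG00000183386) at 37996770 to 38005606 on chromosome 1. LIMA1 (ENSG00000050405) lies at 50175788 to 50283520 on chromosome 12. The exons of PDLIM3 share 646 bases with a lncRNA on the opposite strand (ENSG00000249679, 0.234 FPKM in siC), and those of FHL2 share 122 bases with ENSG00000238273 (0.0177 FPKM in siC). The exons of PDLIM2 share 465 bases with the protein-coding ENSG00000248235 on the same strand, which was at 0 FPKM in all groups, and reads in the shared bases cannot be told apart by strand. Whether reads were counted by strand is not given in the sources used here, so reads of the opposite-strand pairs may not be told apart either. Of the pseudogenes of PDLIM1, PDLIM1P1, PDLIM1P2 and PDLIM1P3 had no read in any library and PDLIM1P4 had 29 reads over all 9 libraries.

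Reads counted on genes ranged from 6421764 to 9416175 per library, with a median of 7377934. The level of IGF2BP1 was 12.8 ± 0.689 FPKM in the siC libraries (SD, n = 3), 4.11 ± 0.0846 in siIGF2BP1 and 14.2 ± 0.455 in siSRF. That of SRF was 14.5 ± 1.28 FPKM in siC, 1.47 ± 0.145 in siSRF and 6.01 ± 0.714 in siIGF2BP1, and SRF fell in both knockdowns (log2 fold change -3.22, adjusted p = 6.1e-05, and -1.26, adjusted p = 0.00111; limma). Epithelial markers summed to between 149 and 161 FPKM in siC, 192 and 220 in siIGF2BP1 and 217 and 222 in siSRF. Among the epithelial genes, KRT7 (0.59, adjusted p = 0.00142, and 0.33, adjusted p = 0.00402) was higher in both knockdowns, KRT8 (0.55, adjusted p = 0.00455) in siIGF2BP1 and KRT18 (0.91, adjusted p = 3.3e-04) in siSRF, as log2 fold changes, while MUC16 was at 0 in all libraries. KRT18 in siIGF2BP1 (-0.07), KRT8 in siSRF (0.19) and PAX8 in siIGF2BP1 (0.50) and siSRF (-0.47) were not called. Of the 9 epithelial genes listed, only 4 were tested. Muscle markers summed to at most 0.132 FPKM and blood cell markers to at most 0.945 FPKM in any library. Endothelial markers summed to between 8.55 and 11.1 FPKM in siC, 14.6 and 16.5 in siIGF2BP1 and 7.87 and 8.65 in siSRF, with CDH5 called higher in siIGF2BP1 (log2 fold change 0.70, adjusted p = 0.00873). These sums were almost wholly CDH5, at a mean of 9.38 FPKM in siC and 15.2 in siIGF2BP1. In siC, VWF was at 0.0139, KDR at 0.125 and PECAM1 at 0.313 FPKM. KDR (-0.16) and PECAM1 (0.04) were not called in siIGF2BP1, so the rise rests on 1 gene. The part of these marker shifts in the results below was not tested. In bulk RNA, fewer cells of a kind and less RNA per cell cannot be told apart.

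Levels are given in FPKM, fragments scaled by gene length and library size, which allows genes to be compared per length. The length used ranged from 2004 bases for FHL3 to 12388 for PDLIM2. Whether it is that of the transcripts expressed was not tested, and the order and shares across genes depend on it. In siC the order was PDLIM1, FHL2, PDLIM7, PDLIM4, LIMA1, FHL3, PDLIM5, FHL1, PDLIM2 and PDLIM3, from 27.2 ± 5.96 FPKM to 0.486 ± 0.0977 FPKM (SD, n = 3). The libraries of PDLIM1 and FHL2 overlapped, as did those of PDLIM7 and PDLIM4, of FHL3 and PDLIM5, and of PDLIM5 and FHL1, whereas the other neighbours in that order did not overlap. Summed over all 10 members, the level was 101.9 ± 5.87 FPKM in siC, 105.3 ± 6.81 in siIGF2BP1 and 78.3 ± 0.996 in siSRF. FHL5, the remaining FHL family gene, was at 0 in all libraries.

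**Figure D2:**
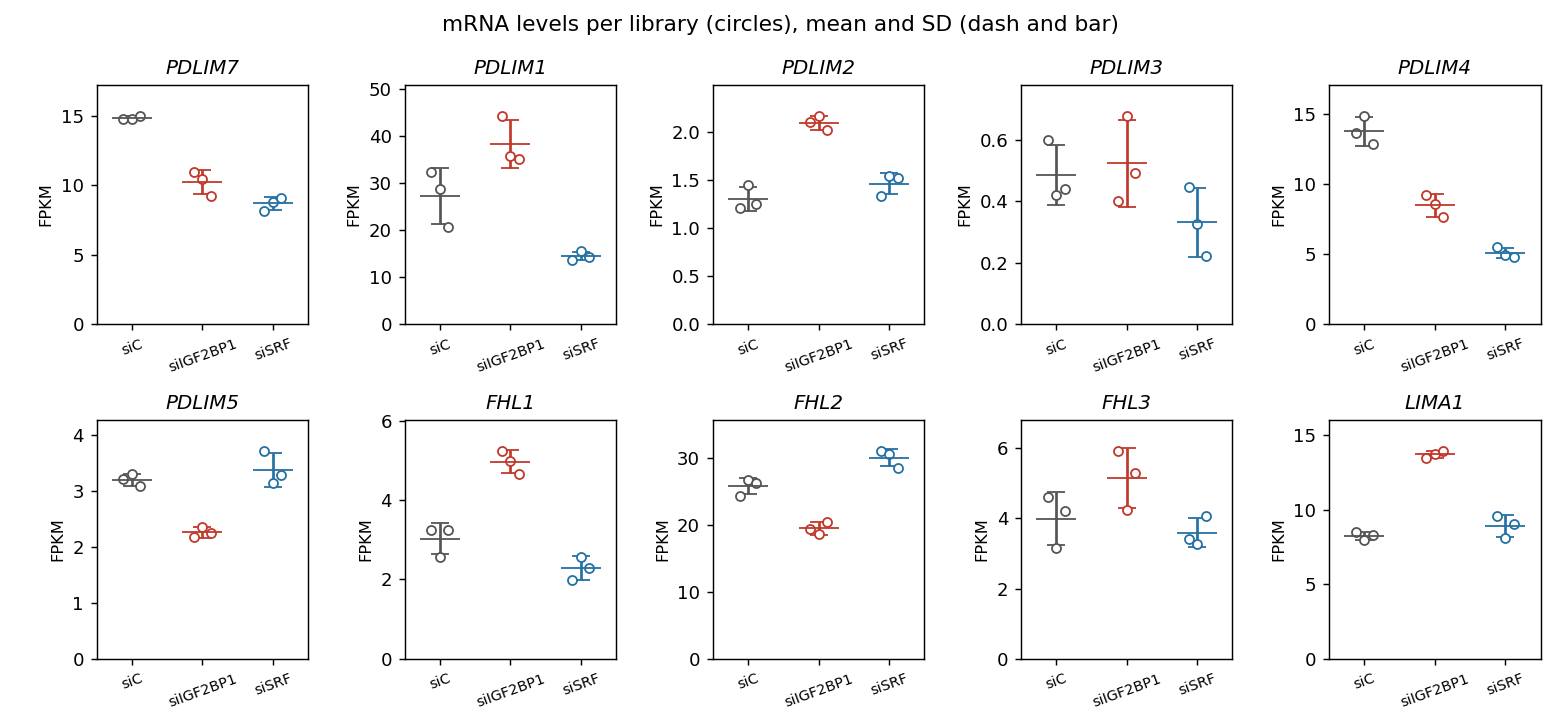
FPKM of each member (y axis, from 0) in every library of siC, siIGF2BP1 and siSRF; circles are libraries, the dash is the mean and the bar the SD of 3 libraries. PDLIM7 and PDLIM4 are lower in both knockdowns than in siC, FHL1 and PDLIM1 are highest in siIGF2BP1, and LIMA1 stands at 13.7 FPKM in siIGF2BP1 against 8.25 in siC.

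PDLIM7, a scaffold for kinases at actin filaments, was at 14.8, 14.8 and 15.0 FPKM in the siC libraries, at 10.9, 10.5 and 9.27 in siIGF2BP1 and at 8.17, 8.84 and 9.11 in siSRF. The libraries of either knockdown lay below all siC libraries, and the siSRF libraries lay below all siIGF2BP1 libraries. PDLIM7 fell after IGF2BP1 depletion with a log2 fold change of -0.54 (standard error 0.0723, 95% interval -0.71 to -0.36, limma adjusted p = 0.00511). Upon SRF depletion it fell by 0.77 on the log2 scale (standard error 0.0576, 95% interval -0.91 to -0.63, adjusted p = 5.7e-04). The direct difference between the knockdowns was 0.23 (95% interval 0.03 to 0.42) and missed the threshold (adjusted p = 0.08). The call after SRF depletion was kept when any 1 of the 6 libraries was left out, with adjusted p of at most 0.00556. It was also kept, at a smaller log2 fold change of -0.52 (adjusted p = 0.00237), after removal of trends along GC content and length. After IGF2BP1 depletion the call was lost whichever 1 library was left out (adjusted p 0.0117 to 0.0224), with log2 fold changes of -0.59 to -0.47. The call was also lost after removal of trends along GC content and length (log2 fold change -0.37, adjusted p = 0.0391). Leaving 1 library out lowered the calls over all tested genes in this comparison as well, from 7.12% to between 1.97% and 3.31%. Both tests share the siC libraries, so the values stand side by side and are not independent.

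PDLIM4 (RIL), which binds alpha-actinin and marks stress fibres, had a similar level to PDLIM7 in siC and a larger difference after SRF depletion. Its libraries stood at 13.6, 14.8 and 12.8 FPKM in siC, at 9.23, 8.59 and 7.62 in siIGF2BP1 and at 5.49, 4.95 and 4.80 in siSRF. No libraries of any 2 conditions overlapped. PDLIM4 fell upon IGF2BP1 depletion (log2 fold change -0.69, standard error 0.0928, adjusted p = 0.00508) and upon SRF depletion (-1.42, standard error 0.0834, adjusted p = 3.4e-04). The direct comparison called it higher in siIGF2BP1 than in siSRF by 0.73 (standard error 0.0943, adjusted p = 0.00181), a call lost without the second siSRF library (adjusted p = 0.0109). The call after IGF2BP1 depletion was lost whichever 1 library was left out (adjusted p 0.0121 to 0.0229) and after removal of the same trends (-0.55, adjusted p = 0.0107). Upon SRF depletion the value after removal of these trends was -1.19 (adjusted p = 5.1e-04).

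PDLIM1 (CLP36), an alpha-actinin partner at stress fibres and focal adhesions, was the most abundant member in siC by its mean. It was at 32.3, 28.7 and 20.7 FPKM in siC, at 44.2, 35.8 and 35.1 in siIGF2BP1 and at 13.7, 15.5 and 14.3 in siSRF. The siIGF2BP1 libraries were highest and the siSRF libraries lowest, with no overlap, but the siC libraries were spread widely and the third was the lowest of them. The difference between the knockdowns was the largest among the members, 1.39 on the log2 scale (standard error 0.10, adjusted p = 1.8e-04). Against siC the log2 fold changes were 0.51 (95% interval 0.08 to 0.94, adjusted p = 0.116) in siIGF2BP1 and -0.88 (95% interval -1.28 to -0.49, adjusted p = 0.0111) in siSRF, and neither passed. Without the third siC library, the value in siSRF was -1.07 and passed (adjusted p = 0.00273), whereas that in siIGF2BP1 was 0.32 (adjusted p = 0.172). Limma-voom on the reads passed PDLIM1 in both (adjusted p = 3.5e-04 and 2.6e-07).

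PDLIM5 and PDLIM2 differed from PDLIM7 in the siSRF libraries. PDLIM5, a scaffold for protein kinase C, was at 3.21, 3.30 and 3.09 FPKM in siC, at 2.18, 2.36 and 2.25 in siIGF2BP1 and at 3.72, 3.14 and 3.28 in siSRF. Its siIGF2BP1 libraries were the lowest, and those of siSRF overlapped with siC. The log2 fold change was -0.48 (95% interval -0.73 to -0.24, adjusted p = 0.0239) in siIGF2BP1 and 0.07 (95% interval -0.18 to 0.32, adjusted p = 0.676) in siSRF. After removal of trends along GC content and length, PDLIM5 passed in siIGF2BP1 (-0.60, adjusted p = 0.00955), as it did with limma-voom (adjusted p = 3.3e-04). It did not pass with any 1 library left out (adjusted p 0.0527 to 0.0761). PDLIM5 was called lower in siIGF2BP1 than in siSRF (-0.56, standard error 0.108, adjusted p = 0.00954), and this call was lost whichever 1 of the 6 libraries was left out. Calls over all tested genes then fell from 20% to between 12.9% and 15.1%.

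PDLIM2, which also serves as a nuclear ubiquitin ligase, stood at 1.21, 1.45 and 1.25 FPKM in siC, at 2.11, 2.17 and 2.02 in siIGF2BP1 and at 1.34, 1.54 and 1.52 in siSRF. All siIGF2BP1 libraries were above the others, with a log2 fold change of 0.65 against siC (95% interval 0.30 to 1.00, adjusted p = 0.0296) and 0.49 against siSRF (adjusted p = 0.0309), neither of which passed, while both passed with limma-voom (adjusted p = 4.8e-05 and 2.9e-04). In siSRF the value was 0.16 (95% interval -0.23 to 0.55). After removal of trends along GC and length, PDLIM2 was at 0.44 in siSRF against siC (adjusted p = 0.0783) and its difference between the knockdowns was 0.27 (adjusted p = 0.172). PDLIM3 (ALP), which is known from muscle Z-discs, rested on 15 to 45 reads per library, at 0.598, 0.420 and 0.440 FPKM in siC, 0.401, 0.677 and 0.492 in siIGF2BP1 and 0.446, 0.325 and 0.223 in siSRF. All its groups overlapped, and its intervals of -0.68 to 0.83 in siIGF2BP1 and -1.29 to 0.37 in siSRF do not exclude a 1.5-fold difference in either direction in siIGF2BP1 or a lower level in siSRF.

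Within the PDLIM family the shares of the summed FPKM shifted between conditions. PDLIM1 held 44.4% in siC, 61.8% in siIGF2BP1 and 43.3% in siSRF, whereas PDLIM7 held 24.6%, 16.5% and 26.0%. PDLIM4 held 22.7%, 13.7% and 15.2%, and PDLIM5 held 5.29%, 3.68% and 10.1%. These shares sum to 100% and PDLIM1 is the largest of them, so they do not give the change of PDLIM7 itself, which was at 68.8% of its siC level in siIGF2BP1 and at 58.6% in siSRF. The ratio of PDLIM7 to each other member was compared within libraries. After IGF2BP1 depletion the ratio did not overlap with siC for 6 of the 9 other members, of which 3 were among its 5 paralogs, and for 57% of all other genes tested. After SRF depletion this was the case for 7 of 9, again with 3 of the 5 paralogs, and for 63.7% of all other genes tested. The counts among the members were thus near the background. Relative to siC, the log2 ratio of PDLIM7 to PDLIM1 differed by -1.05 in siIGF2BP1, that to PDLIM4 by 0.16 and that to PDLIM5 by -0.05, the last with overlap. In siSRF the ratio to PDLIM4 differed by 0.65, that to PDLIM5 by -0.84 and that to PDLIM1 by 0.12, the last with overlap. The exact two-sided permutation test over 18 such ratios gave p = 0.1 at the lowest, the smallest that 3 libraries against 3 allow, and 0.138 after adjustment.

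**Figure D3:**
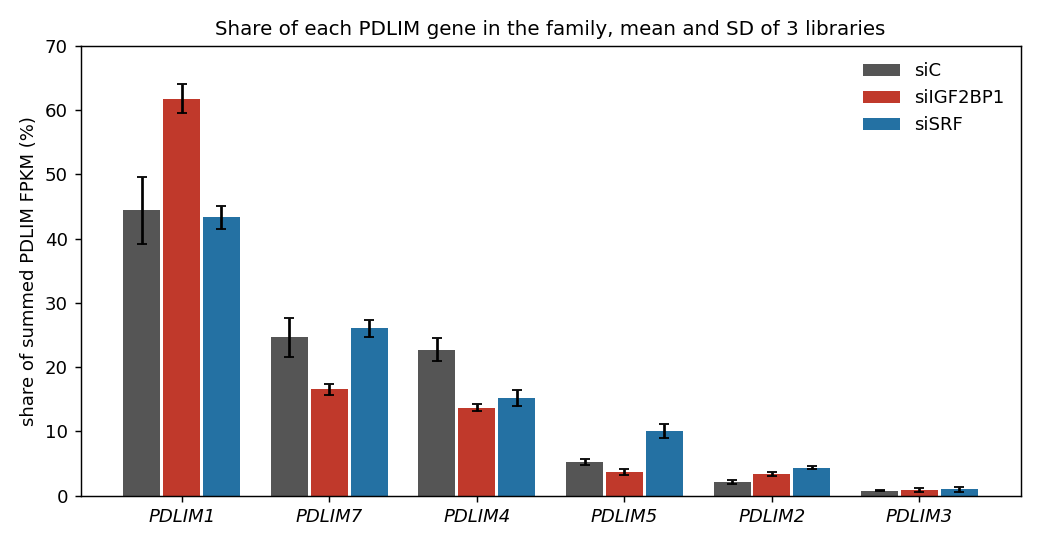
Share of each PDLIM gene in the summed PDLIM FPKM (y axis, percent) in siC, siIGF2BP1 and siSRF; bars are means and error bars the SD of 3 libraries. PDLIM1 holds 61.8% in siIGF2BP1 against 44.4% in siC, and PDLIM7 holds 16.5% against 24.6%.

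The FHL genes did not move together. FHL1 was at 3.26, 2.58 and 3.25 FPKM in siC, at 5.24, 4.98 and 4.67 in siIGF2BP1 and at 1.99, 2.58 and 2.28 in siSRF. Its siIGF2BP1 libraries were above all others, and siSRF overlapped with siC. The log2 fold change of FHL1 was 0.70 (95% interval 0.41 to 1.00, adjusted p = 0.0124) in siIGF2BP1 and -0.39 (95% interval -0.76 to -0.02, adjusted p = 0.126) in siSRF. The direct comparison called FHL1 higher in siIGF2BP1 than in siSRF by 1.09 (standard error 0.120, adjusted p = 9.3e-04).

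FHL2, a cofactor known to bind SRF, was at 24.4, 26.7 and 26.3 FPKM in siC, at 19.4, 18.6 and 20.5 in siIGF2BP1 and at 31.1, 30.6 and 28.6 in siSRF. No groups overlapped, with siIGF2BP1 lowest and siSRF highest. FHL2 fell upon IGF2BP1 depletion (log2 fold change -0.40, standard error 0.0584, adjusted p = 0.00684), a call lost whichever 1 library was left out. In siSRF it was 0.22 (standard error 0.0552, adjusted p = 0.0312), which passed with limma-voom on the reads (adjusted p = 0.00476). The difference between the knockdowns was -0.62 (standard error 0.054, adjusted p = 3.7e-04). FHL3 stood at 4.61, 3.16 and 4.21 FPKM in siC, at 5.92, 4.24 and 5.30 in siIGF2BP1 and at 3.43, 3.28 and 4.06 in siSRF, with log2 fold changes of 0.37 (95% interval -0.08 to 0.81) and -0.14 (95% interval -0.54 to 0.26) against siC. Neither passed, each knockdown overlapped with siC, and FHL3 rested on only 43 to 91 reads per library.

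LIMA1 was at 8.51, 7.94 and 8.30 FPKM in siC, at 13.5, 13.7 and 13.9 in siIGF2BP1 and at 9.56, 8.13 and 9.04 in siSRF. The siIGF2BP1 libraries were above all others. LIMA1 rose upon IGF2BP1 depletion (log2 fold change 0.73, standard error 0.0536, adjusted p = 6.9e-04), and the call held whichever 1 library was left out (adjusted p at most 0.00728). In siSRF the value was 0.11 (95% interval -0.08 to 0.29, adjusted p = 0.394), and the direct difference was 0.62 (standard error 0.0689, adjusted p = 9.8e-04).

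**Figure D4:**
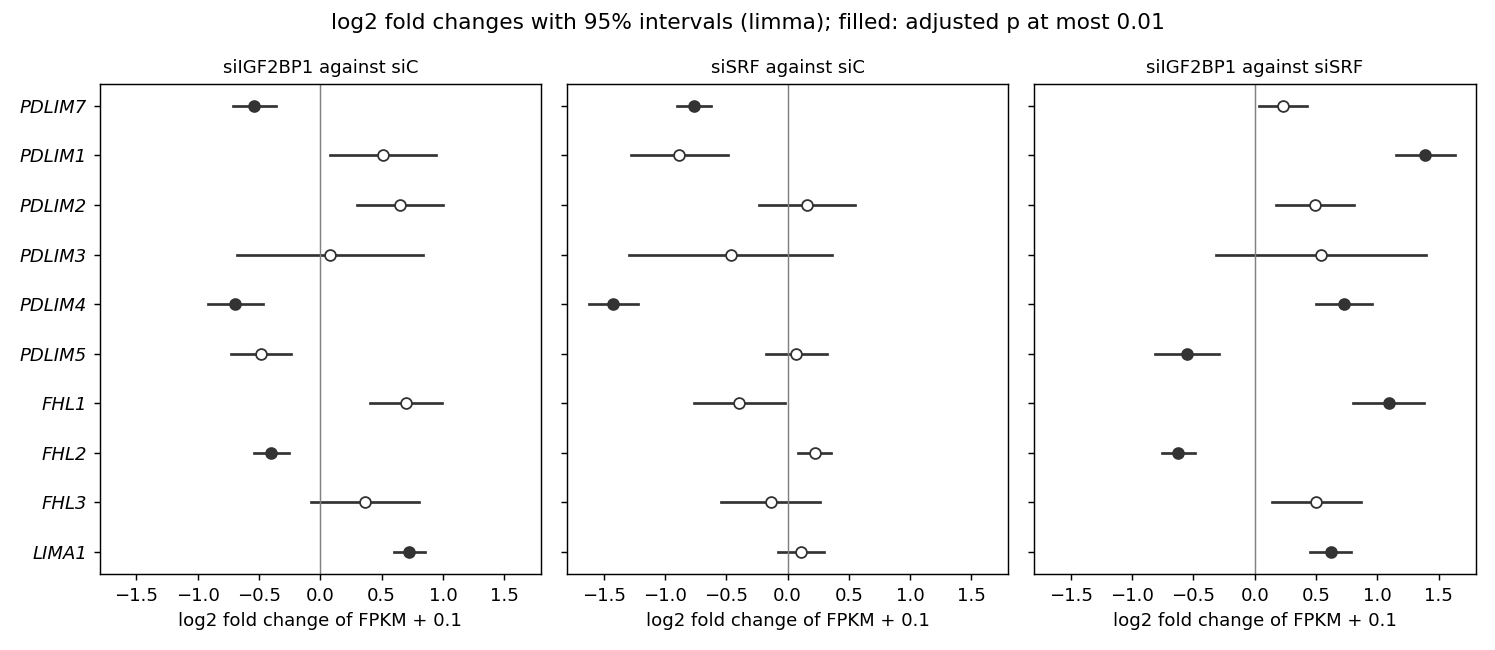
Log2 fold changes of FPKM + 0.1 (x axis) of the 10 members in the 3 comparisons, with 95% intervals from limma; filled circles passed an adjusted p of at most 0.01. LIMA1 is the filled point above 0 in siIGF2BP1 against siC at 0.73, and PDLIM4 is the lowest point in siSRF against siC at -1.42.

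Counted over the members, 3 were called lower (PDLIM4, PDLIM7 and FHL2) and 1 higher (LIMA1) upon IGF2BP1 depletion, where 3.57% of all tested genes were called lower and 3.55% higher, and among protein-coding genes 5.91% and 5.52%. Limma-voom on recovered reads called 4 lower (also PDLIM5) and 4 higher (also PDLIM1, PDLIM2 and FHL1), against 8.48% and 8.59% of all genes. With only genes of at least 10 reads on average, a limit added after simulated data showed false calls below it, 4 were lower (also PDLIM5) and 3 higher (also PDLIM2 and FHL1), against 10.2% and 9.64%. The groups did not overlap for 8 of the 10, against 35.6% of all tested genes. For each of these the two-sided exact permutation test gave p = 0.1, the smallest that 3 libraries against 3 allow.

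Upon SRF depletion 2 members were called lower (PDLIM4 and PDLIM7) and 0 higher by limma, against 5.34% and 6.85% of all genes and 8.67% and 11.1% of protein-coding genes. Limma-voom called 3 lower (also PDLIM1) and 1 higher (FHL2), against 10.7% and 12.7%. The limit of 10 reads gave 3 lower (also PDLIM1) and 0 higher, against 13.5% and 16.3%. At an unadjusted p below 0.05, limma had 1 member with a higher value, FHL2, against 18.7% of all tested genes. The groups did not overlap for 4 of the 10, against 39.9%.

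Between the knockdowns 2 members were lower in siIGF2BP1 than in siSRF (PDLIM5 and FHL2) and 4 higher (PDLIM1, PDLIM4, FHL1 and LIMA1), against 11.2% and 8.82% of all genes and 18.3% and 13.7% of protein-coding genes. Limma-voom called 2 lower and 5 higher (also PDLIM2), against 16.3% and 14.7%, and the limit of 10 reads gave the same counts, against 22.8% and 19.3%. The groups did not overlap for 9 of the 10, against 46.1% of all tested genes. The median log2 difference of the members was 0.52, beside 0.02 over all tested genes. The medians were 0.22 in siIGF2BP1 and -0.26 in siSRF against siC, beside 0.02 and 0.01 over all tested genes.

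**Figure D5:**
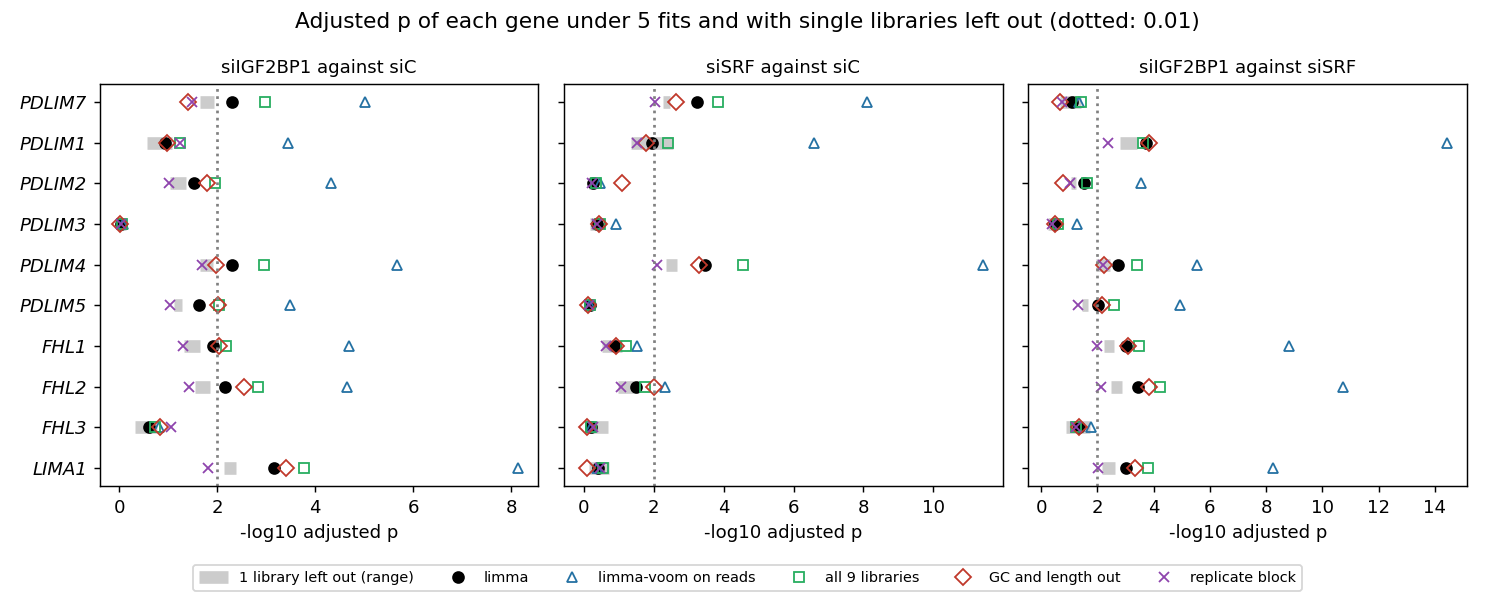
Adjusted p of each member as -log10 (x axis; dotted line at 0.01) in the 3 comparisons under limma, limma-voom, all 9 libraries in one fit, removal of GC and length trends, and a replicate block; grey bars span the values with 1 library left out. The grey bars of PDLIM7, PDLIM4 and FHL2 in siIGF2BP1 against siC lie left of the line, and those of PDLIM7 and PDLIM4 in siSRF against siC lie right of it.

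Of 41 other cytoplasmic LIM-domain genes, 30 were tested upon IGF2BP1 depletion, where 2 fell and 5 rose. Called lower and higher were 3.57% and 3.55% of all tested genes and 5.91% and 5.52% of protein-coding genes. CSRP1, which cross-links actin with alpha-actinin, fell (log2 fold change -0.97, adjusted p = 6.0e-04), as did the cofilin kinase LIMK1 (-0.77, adjusted p = 0.00495). AJUBA, an adherens junction and Hippo pathway scaffold, rose by 0.90 (adjusted p = 2.4e-04), LIMS1 (PINCH1) by 0.64 (adjusted p = 0.00283) and the actin-binding ABLIM1 by 2.56 (adjusted p = 0.00452), the last from 0.0593 to 0.838 FPKM on 2 to 78 reads per library. In siSRF 5 of 28 tested fell and 1 rose, against 5.34% and 6.85% of all genes and 8.67% and 11.1% of protein-coding genes. CSRP1 fell by 1.03 (adjusted p = 3.3e-04), LASP1, an actin-binding protein of focal adhesions, by 0.88 (adjusted p = 3.7e-04) and MICALL1, an endocytic recycling protein, by 1.00 (adjusted p = 0.00142), while AJUBA rose by 1.08 (adjusted p = 6.1e-05). Between the knockdowns 2 of 30 were lower in siIGF2BP1 than in siSRF and 9 higher. The background here was 11.2% and 8.82% of all tested genes and 18.3% and 13.7% of protein-coding genes.

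Genes for alpha-actinins, the palladin family, tropomyosin and related actin filament proteins were also described. Of 11 listed, 7 were tested in each comparison. Upon IGF2BP1 depletion 2 were called lower and 1 higher, against 3.57% and 3.55% of all tested genes. The alpha-actinins ACTN4 (log2 fold change -0.58, adjusted p = 9.7e-04) and ACTN1 (-0.46, adjusted p = 0.00203) fell upon IGF2BP1 depletion and SYNPO, an alpha-actinin-binding protein, rose (0.63, adjusted p = 0.0044). In FPKM, ACTN4 was at 149 ± 4.65 in siC, 99.6 ± 3.70 in siIGF2BP1 and 146 ± 3.52 in siSRF (SD, n = 3). Upon SRF depletion 1 of the 7 was called, the actin filament protein NEXN, which rose by 1.48 (adjusted p = 5.2e-04). Over all tested genes, 6.85% were called higher and 5.34% lower in that comparison. Between the knockdowns 3 of 7 were lower in siIGF2BP1 and 1 was higher, against 11.2% and 8.82% of all tested genes.

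Over the 9 libraries, the protein-coding genes of at least 1 FPKM most like PDLIM7 on log2(FPKM + 0.1), among 10379 compared, were the formin INF2 (Pearson r = 0.987), CKAP2L (0.984), the MARCKS-like gene MARCKSL1 (0.983), the adhesion gene LRFN4 (0.983) and the 14-3-3 gene YWHAH (0.983). The points share the 3 conditions, so these values largely describe the order of the group means and are given with no test. INF2 was at 11.8 ± 0.381 FPKM in siC, 8.02 ± 0.132 in siIGF2BP1 and 6.87 ± 0.267 in siSRF. The gene most like each other member was PARP12 for PDLIM1 (0.985), ADAMTS12 for PDLIM2 (0.985), FCHSD2 for PDLIM3 (0.949), INAFM2 for PDLIM4 (0.993), SHCBP1 for PDLIM5 (0.983), SMIM14 for FHL1 (0.988), PSMD8 for FHL2 (0.995), SPEG for FHL3 (0.930) and ASAP2 for LIMA1 (0.986). Between members, r was -0.97 for FHL1 and FHL2, -0.96 for PDLIM5 and FHL1, 0.95 for PDLIM4 and PDLIM7, 0.92 for PDLIM5 and FHL2 and -0.91 for PDLIM1 and FHL2, over the same 9 libraries.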

How the data were processed

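Total RNA of ES-2 cells, depleted of ribosomal RNA, was sequenced in 9 libraries. Per the submitters' processing notes and the methods of the study, the authors clipped reads with cutadapt 1.14, aligned them with HISAT2 2.1.0 to hg38, handled them with SAMtools 1.5, counted them on Ensembl genes with featureCounts 1.5.3 and normalized by TMM in edgeR 3.18.1. The deposited values are FPKM per library in 2 tables with identical siC values. The tables' own log2 fold changes, p-values and FDR by the authors were not used.

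Conditions came from the labels. The values were analysed as log2(FPKM + 0.1), which understates changes of low genes, with limma 3.58.1 (lmFit, eBayes with trend) in R 4.3.3. A gene was tested where its average over the 6 libraries compared reached 0.1 FPKM. The Benjamini-Hochberg adjustment ran over all tested genes, with 0.01 as the threshold. All 10 members passed this filter in each comparison. FPKM times gene length, divided by 1 constant per library (what 1 read is worth), gave whole reads for 100% of the values (tolerance 0.02 reads), which were used for limma-voom. Read counts are subject to counting error, so members with few reads are less precise. The alternatives are named in the closing section.

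On simulated data, limma on log2(FPKM + 0.1) recovered the fold changes, but its false calls exceeded the threshold because genes of under 10 reads per library, with few distinct values, were called. It also called only a minority of the genes simulated as changed, so a gene that did not pass is not shown to be unchanged. Limma-voom made few false calls on genes of under 10 reads per library. The limit of 10 reads removes such genes before the test, so it could make none there. In the real data 4.22% of the calls for siIGF2BP1 against siC, 3.26% for siSRF against siC and 3.74% between the knockdowns were on such genes, and 0 of the members were. These genes also enter the background shares and the adjustment, so the limit of 10 reads was run as an alternative added after these simulations.

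The labels do not state separate cultures, so p-values measure only the spread between these libraries, which may be technical. Members, lists and tests were chosen with earlier results of these data known. The named genes are all members, the targeted genes, up to 3 called genes per list, direction and comparison with siC by smallest p, the 5 protein-coding genes most like PDLIM7 and the gene most like each other member. Coordinates are from GENCODE 44, a later annotation than the one counted on.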

Additional observations from a re-analysis of the deposited data

Results flagged for a closer look

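For 6 members, the effects of the 2 knockdowns differed in the direct test of siIGF2BP1 against siSRF (limma, adjusted p of at most 0.01). The difference, siIGF2BP1 minus siSRF on the log2 scale, was 1.39 for PDLIM1, 1.09 for FHL1, 0.73 for PDLIM4 and 0.62 for LIMA1, and it was -0.62 for FHL2 and -0.56 for PDLIM5. For PDLIM1 and FHL1 the mean was above siC in siIGF2BP1 and below it in siSRF, and for FHL2 it was the other way round, whereas PDLIM4 was lower than siC in both. Against siC, however, PDLIM1 (adjusted p = 0.116 and 0.0111) and FHL1 (0.0124 and 0.126) passed in neither knockdown, and FHL2 did not pass in siSRF (0.0312). The direct call of PDLIM5 was lost whichever 1 library was left out, and that of PDLIM4 without the second siSRF library. The background is 11.2% of all tested genes called lower and 8.82% called higher in this comparison.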

How the results depend on the processing

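Over the alternatives, 416 fold changes of single members kept their direction and their side of the threshold, 21 newly passed, 35 no longer passed and 5 changed sign. Upon IGF2BP1 depletion, the 1 member called higher became 4 with limma-voom, 3 with at least 10 reads, 3 at an adjusted p of 0.05, and 2 with a mean of at least 1 FPKM, with all 9 libraries in one fit, and after removal of GC and length trends. The 3 called lower became 0 when any 1 library was left out (range 0 to 0). Leaving 1 library out lowered the share of all tested genes called from 7.12% to between 1.97% and 3.31% in this comparison. The share fell from 12.2% to between 4.33% and 8.22% upon SRF depletion, and from 20% to between 12.9% and 15.1% between the knockdowns. Upon SRF depletion, the 0 called higher became 1 with limma-voom, after removal of GC and length trends, and at 0.05. Between the knockdowns, the 2 called lower became 1 with a pseudocount of 1, without a filter on low values, with median-ratio rescaling, and with any 1 library left out (range 1 to 1), each time without PDLIM5. Signs changed for PDLIM3 in siIGF2BP1 without siC replicate 2 (-0.0024) or siIGF2BP1 replicate 2 (-0.0932), the range with 1 library left out being -0.0932 to 0.224, and in siSRF, after removal of GC and length trends, for PDLIM5 (-0.0573), FHL3 (0.0691) and LIMA1 (-0.0324). The causes were not tested. The limit of 10 reads and the GC and length alternative were added after the data were seen.

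Replicate numbers are labels only. Deviations of same-numbered libraries correlated between -0.0438 and 0.0186 over 9 pairs, with none over 0.1, so the numbers did not pair the libraries. With the replicate block, 0 members were called lower and 0 higher upon IGF2BP1 depletion (LIMA1, adjusted p = 0.0156; PDLIM4, 0.021; PDLIM7, 0.0326; FHL2, 0.0375), and 1 was called lower between the knockdowns. Over all genes the block gave 31 lower and 60 higher calls upon IGF2BP1 depletion, against 796 and 792 without it, 244 and 257 upon SRF depletion, against 1167 and 1498, and 1203 and 872 between the knockdowns, against 2492 and 1968. Limma-voom called 1891 and 1914, 2343 and 2780, and 3630 and 3282, and at least 10 reads gave 1421 and 1339, 1842 and 2229, and 3196 and 2710. With 3 libraries per condition no permutation test of a single gene could pass. PDLIM3 rested on 15 to 45 reads per library and FHL3 on 43 to 91.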
